A study of Mus musculus with 2 samples.

Results

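The genes that were at least 1.5-fold lower in oxalate-treated 4T1 cells than in PBS-treated cells form a list of 103 genes out of 10267 with a mean expression of at least 1 FPKM. FPKM is the number of sequenced fragments per kilobase of transcript and scaled by the size of the library, so it is a level per length. The members were chosen by their own values in these libraries: a gene entered when its mean FPKM over both libraries was at least 1 and its PBS level plus 1 was at least 1.5 times its oxalate level plus 1. The rule left out Tead1, Rac1, Gpx1, Gstp2 and the histone genes named Hist, which removed 5 of the 108 genes past the threshold. Of all 10267 genes, 1.05% lay past this fold in the lower direction before names were left out, and 0.935% (96 genes) lay past it in the higher direction. Because the members were selected on this difference, their levels and differences are given as a description, without a test.

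4T1 is a line of BALB/c mouse mammary carcinoma cells. About 5000000 cells received PBS and as many received potassium oxalate, and after 48 h each condition gave 1 RNA-seq library. No gene was deleted or added in either group, and the agent is the only difference that the labels give. With 1 library per condition, differences between cultures or libraries cannot be told apart from those of the agent. The dose stood as 20 microM in the treatment label and as 20 mM in the protocol text. The paper that reported the data gives 20 microM for the sequenced cells. Each library comes from a culture of 1 cell line, so no difference between the conditions has a replicate check.

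Oxalate is a small dicarboxylate that mammals make as an end product of glyoxylate breakdown and do not degrade further. It binds calcium strongly and is known for kidney stones and for oxidative stress in epithelial cells. A list drawn by fold size is not a pathway, and its members here work in transcription, RNA handling, membrane traffic, the cytoskeleton, ubiquitin transfer, signalling and metabolism.

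The cells had the markers of their label. All 10 epithelial markers were expressed, with a summed level of 2330 FPKM with PBS and 2380 FPKM with oxalate. The fibroblast list summed to 149 FPKM in both libraries, almost all of it Col1a1 (143.48 and 144.61 FPKM), with Fap, Lum and Thy1 at 0. The myeloid and lymphoid list summed to 13.1 and 12.3 FPKM, most of it Cd68 (7.79 and 7.11 FPKM) and Csf1r (4.93 and 5.18 FPKM). In that list 8 of the 12 markers, Ptprc and Adgre1 among them, were at 0 in both libraries. Endothelial markers summed to 0.11 and 0.15 FPKM. In bulk RNA, fewer cells of a kind and less RNA per cell cannot be told apart. The depth, read from the steps between low FPKM values, was about 56800000 reads for PBS and 36500000 for oxalate.

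Throughout, the PBS value is given first and the oxalate value after it. The members had a median of 11.6 FPKM with PBS (range 1.54 to 325.44) and 5.67 FPKM with oxalate (highest 196.27). All 10267 genes had a median of 16.5 FPKM in both libraries. The median log2 fold change was -0.82 for the members and 0.00309 for all genes. On the log2(FPKM + 1) scale 32 members were at least 2-fold lower, 9 of them at least 3-fold, and 71 lay between 1.5-fold and 2-fold. In level, 73 members had a mean of at least 5 FPKM, 30 were below 5 FPKM, and 8 were at a mean of 50 FPKM or more. The members held 0.472% of the summed FPKM of the PBS library and 0.244% of that of the oxalate library.

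**Figure D1:**
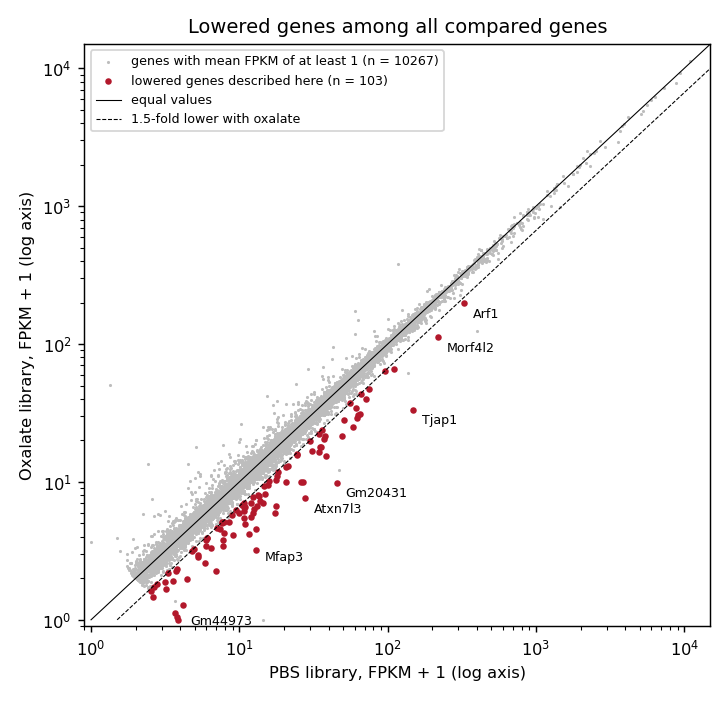
Level of each gene in the PBS library (horizontal axis) and in the oxalate library (vertical axis), as FPKM + 1 on log axes; grey points are the 10267 genes with a mean of at least 1 FPKM and red points the 103 lowered genes. The red points lie below the dashed 1.5-fold line by construction and run from PBS levels of 1.54 FPKM to the 325.44 FPKM of Arf1, which stands closest to the line among the high genes labelled.

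Counting error was small beside these differences for most members. The estimated reads had a median of 1360 with PBS and 413 with oxalate, and 98 members had at least 100 PBS reads. The exact (Clopper-Pearson) 95% interval of the ratio, formed from estimated reads without a pseudocount, lay wholly beyond 1.5-fold for 78 members and reached 1.5-fold or less for 25. Since the members were chosen on these same values, the intervals describe precision and are no test. These intervals cover counting error only and say nothing of the spread between cultures. Just inside the threshold lay Cdkn2d (6.66 and 4.09 FPKM, -0.59) and Tbca (54.75 and 36.09 FPKM, -0.588). Just outside it lay Mettl5 (7.37 and 4.59 FPKM, -0.582), Zbtb45 (13.97 and 9.05 FPKM, -0.575) and Tmsb10 (1455.59 and 978.06 FPKM, -0.573).

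Among members with a mean of at least 5 FPKM, the largest differences were those of Gm20431, Tjap1, Mfap3, Atxn7l3 and Zc3h11a. Gm20431 (chr2:167607850-167661496, GRCm38) is a predicted coding gene that spans Tmem189 and Ube2v1, and it had 44.23 and 8.88 FPKM, or -2.19 as a log2 fold change. Of the 2367 bases of its transcript, a stretch of 1674 was identical to Ube2v1 and 1 of 695 to Tmem189. The intervals given with the next genes are for the log2 ratio without a pseudocount and can lie below the fold change itself. Tjap1 encodes a protein of tight junctions and the Golgi. It lies at chr17:46257851-46283026 on the minus strand and overlapped no other listed gene. Its level was 147.06 FPKM with PBS and 32.5 FPKM with oxalate (-2.14, counting interval -2.25 to -2.1). Mfap3, named for a protein associated with elastic microfibrils, had 11.93 and 2.2 FPKM (-2.01, interval -2.62 to -2.26). Atxn7l3, an adaptor that activates the SAGA deubiquitinase, had 26.83 and 6.59 FPKM (-1.87, interval -2.13 to -1.92). Zc3h11a, a zinc finger protein of mRNA export, had 16.52 and 4.91 FPKM (-1.57, interval -1.96 to -1.55). Of the 4396 bases of its longest coding transcript, 4237 were identical to Gm38394, which had 8.85 and 12.59 FPKM. The interval does not cover how reads were divided between these genes, which was not tested. In each of these 5 genes the PBS level was more than 3 times the oxalate level. In Tjap1 the PBS reads were estimated at 11348 against 1614 with oxalate. That estimate takes the mean length of its 11 coding transcripts, which run from 336 to 2559 bases.

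**Figure D2:**
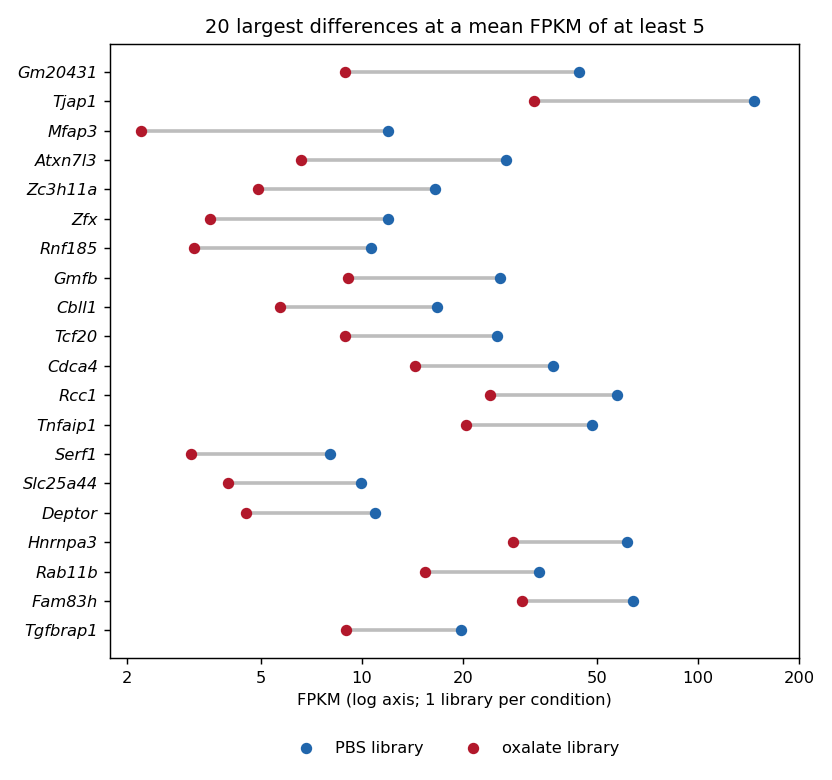
FPKM (log axis) of the 20 members with the largest difference at a mean of at least 5 FPKM; blue points are the PBS library and red points the oxalate library, joined by a grey line. Tjap1 is the member with the highest PBS level among them (147.06 FPKM), and Mfap3 reaches the lowest oxalate level (2.2 FPKM).

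The promoters of 4 of these genes are printed because they precede the members that differed most, outside Gm20431, among those with a mean of at least 5 FPKM. Each is the 250 bases before the RefSeq gene start in GRCm38.p6, read 5′ to 3′ on the strand of the gene, with matches to the searched motifs in capitals. Tjap1 is at chr17:46283027-46283276 (minus strand), Mfap3 at chr11:57518415-57518664 (plus), Atxn7l3 at chr11:102296630-102296879 (minus) and Zc3h11a at chr1:133661400-133661649 (minus).
Tjap1: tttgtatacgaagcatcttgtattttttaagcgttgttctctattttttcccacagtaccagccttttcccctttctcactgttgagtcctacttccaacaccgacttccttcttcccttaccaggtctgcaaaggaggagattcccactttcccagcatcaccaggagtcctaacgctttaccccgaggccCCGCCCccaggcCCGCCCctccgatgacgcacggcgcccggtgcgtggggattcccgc
Mfap3: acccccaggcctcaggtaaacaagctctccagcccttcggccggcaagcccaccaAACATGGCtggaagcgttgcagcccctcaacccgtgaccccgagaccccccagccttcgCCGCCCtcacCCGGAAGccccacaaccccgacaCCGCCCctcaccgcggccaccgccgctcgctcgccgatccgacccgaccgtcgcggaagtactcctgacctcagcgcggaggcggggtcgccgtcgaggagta
Atxn7l3: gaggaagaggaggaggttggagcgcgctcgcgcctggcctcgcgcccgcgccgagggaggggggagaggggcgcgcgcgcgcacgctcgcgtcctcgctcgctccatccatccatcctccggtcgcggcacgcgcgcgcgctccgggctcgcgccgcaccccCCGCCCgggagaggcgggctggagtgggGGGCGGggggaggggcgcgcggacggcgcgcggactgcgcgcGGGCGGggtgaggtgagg
Zc3h11a: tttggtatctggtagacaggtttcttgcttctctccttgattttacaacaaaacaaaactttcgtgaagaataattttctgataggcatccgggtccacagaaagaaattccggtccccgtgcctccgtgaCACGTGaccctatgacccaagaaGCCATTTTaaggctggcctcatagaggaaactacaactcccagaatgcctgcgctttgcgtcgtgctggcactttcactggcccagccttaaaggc
The Tjap1 window held 2 GC boxes and 14 CpG, and that of Mfap3 held 2 GC boxes, an ETS core and a YY1 core with 28 CpG. The Atxn7l3 window held 3 GC boxes and 46 CpG. The Zc3h11a window held an E-box and a YY1 core, no GC box, and 9 CpG.

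Across the members with exactly 1 window, the shares with each motif lay above those of expressed genes for some motifs and below for others, with no test. A single RefSeq window was found for 53 members, and for 6452 of the genes with a mean of at least 1 FPKM and 22862 genes in all. The motifs were searched on both strands. A GC box (GGGCGG) was in 69.8% of the member windows, 64.9% of those of the expressed genes and 32.4% of all windows. A CCAAT box (CCAAT) was in 34% of member windows against 37.8% and 34.7%. The E-box CACGTG was in 7.55% against 8.94% and 5.92%, and the TATA box TATAAA in 3.77% against 5.49% and 13.6%. An ETS core (CCGGAAG) was in 9.43%, that is 5 windows, against 16.8% and 7.09%. The TEAD core GGAATG was in 15.1%, that is 8 windows, against 10% and 12.6%. The antioxidant response element TGACNNNGC was in 9.43% against 12.1% and 10%, the AP-1 site TGANTCA in 3.77% against 3.81% and 6.96%, the CRE TGACGTCA in 1.89% against 2.98% and 1.61%, and the YY1 core GCCATNTT in 3.77% against 5.01% and 3.94%. Some of these letters can overlap, as those of the AP-1 site and the antioxidant response element can. The median window had 14 CpG for members and 17 for expressed genes, at 59.2% and 60.8% GC. A match is a description of letters and no evidence of binding.

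Below a mean of 5 FPKM, 12 members came under 1 FPKM with oxalate. Gm44973, a predicted gene, had 2.85 FPKM with PBS, about 162 reads, and is listed at 0 with oxalate. Prn, a gene that runs across the prion protein gene Prnp and its neighbour Prnd, had 2.79 and 0.04 FPKM. Tmem140, a transmembrane protein gene, had 2.71 and 0.12 FPKM. Mfsd4a, a member of the major facilitator family of transporters, had 3.14 and 0.27 FPKM. These 4 genes were near the floor with oxalate while PBS gave levels close to 3 FPKM, and the oxalate value of Prn rests on about 4 reads and that of Tmem140 on about 5. Rnf24 (3.41 and 0.97 FPKM), Tmem170b (2.59 and 0.91 FPKM) and Msi1, a Musashi translational regulator (1.54 and 0.63 FPKM), also came under 1 FPKM.

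By function the members fell into 10 groups, which were drawn up from textbook knowledge after the values were seen. The groups were not counted over all 10267 genes, so their sizes have no background and say nothing particular of the members. Regulators of transcription and chromatin were the largest group. It held 19 genes, 5 of them at least 2-fold lower, with a median log2 fold change of -0.88 and median levels of 23.6 and 6.72 FPKM. Next to Atxn7l3, Zfx, an X-linked zinc finger activator, had 11.97 and 3.54 FPKM. Tcf20, a transcriptional coregulator, had 25.22 and 8.92 FPKM. Cdca4, which is tied to E2F-dependent transcription, had 37.16 and 14.34 FPKM. Zfp703, the mouse relative of a corepressor gene amplified in luminal breast cancer, had 61.84 and 29.33 FPKM. Those 4 genes and Atxn7l3 were the members of the group past 2-fold. The retinoic acid receptor gene Rarg had 60.12 and 33.09 FPKM. Nfkbiz, which encodes a nuclear IκB protein that tunes NF-κB targets, had 36.01 and 19.49 FPKM. Sp2, of the Sp family that binds GC-rich sites, had 23.57 and 15.02 FPKM. The group ran from the high Morf4l2 (218.08 and 111.29 FPKM), a chromatin-binding protein of acetyltransferase complexes, down to Zfp169 (2.78 and 1.33 FPKM). The remaining members were Dpy30 (70.69 and 39.23 FPKM), Zfp358 (29.9 and 15.76 FPKM), Zfp768 (12.87 and 6.27 FPKM), Zxdc (12.05 and 5.67 FPKM), Zfp275 (11.61 and 5.34 FPKM), Csrnp1 (11.29 and 6.72 FPKM), Mbtd1 (7.48 and 4.11 FPKM), Zfp984 (4.24 and 1.97 FPKM) and Zfp965 (3.93 and 2.24 FPKM).

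Proteins that bind or modify RNA made a group of 9, of which 3 were at least 2-fold lower, with a median of -0.8. Cbll1, the E3 ligase Hakai and a partner of the m6A writer, had 16.75 and 5.7 FPKM. Hnrnpa3, a nuclear ribonucleoprotein, had 61.59 and 28.09 FPKM. Hnrnpd, which binds AU-rich elements of mRNA, differed less, with 95.05 and 62.76 FPKM. Rbmx, an X-linked splicing regulator, had 29.16 and 18.87 FPKM. The tRNA-modifying enzymes Mettl8 and Adat3 had 9.78 and 5.19 FPKM, and 5.46 and 2.31 FPKM. Rp9, whose human relative is linked to retinitis pigmentosa, had 73.86 and 46.46 FPKM.

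The 11 genes of membrane traffic and the lysosome had a median of -0.9, and 4 were at least 2-fold lower. Arf1, the small GTPase that recruits COPI coats to the Golgi, was the most highly expressed member and had 325.44 and 196.27 FPKM. Rab11b and Rab12, GTPases of recycling endosomes, had 33.58 and 15.41 FPKM, and 33.86 and 16.95 FPKM. Tgfbrap1, a subunit of the CORVET tether of early endosomes, had 19.74 and 8.97 FPKM. Golph3l, a Golgi protein that binds phosphatidylinositol 4-phosphate, showed the largest difference of the group, with 6.72 and 2.43 FPKM (-1.17). Lipa, the lysosomal acid lipase, had 6.81 and 2.82 FPKM. Tmem41b, a lipid scramblase of the endoplasmic reticulum needed for autophagy, had 10 and 5.58 FPKM. Elmod3 (6.94 and 3.25 FPKM), Gpr137 (8.9 and 4.92 FPKM) and Paqr3 (2.32 and 1.19 FPKM) were also in the group.

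The 8 genes of junctions and the cytoskeleton had the highest median level of the groups with PBS (45 and 26.4 FPKM), a median difference of -0.85, and 3 were at least 2-fold lower, Tjap1 among them. Gmfb, of the ADF family that takes apart actin branches, had 25.72 and 9.06 FPKM. Fam83h, which organizes keratin filaments, had 64.12 and 30.04 FPKM. Lima1, or EPLIN, which stabilizes actin filaments, had 9.76 and 4.49 FPKM. Palld, the actin-bundling palladin, had 20.34 and 12.09 FPKM. Fam107b had 109.14 and 65 FPKM, the GTPase-activating protein gene Arhgap27 had 35.29 and 22.8 FPKM, and the tubulin cofactor gene Tbca had 54.75 and 36.09 FPKM.

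Of the 5 genes of the ubiquitin pathway 3 were at least 2-fold lower, with a median of -1.16. Rnf185, an E3 ligase of the endoplasmic reticulum, had 10.65 and 3.16 FPKM. Tnfaip1, an adaptor of Cul3 ligases, had 48.34 and 20.41 FPKM. March8, a membrane E3 ligase that removes receptors from the surface, had 34.39 and 16.86 FPKM. Cops9, a subunit of the COP9 signalosome, had 16.95 and 10 FPKM.

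Signalling and the cell cycle gave 11 members with a median of -0.78, of which 3 were at least 2-fold lower. These were Rcc1, the nucleotide exchange factor of Ran (57.33 and 24.05 FPKM), Deptor, an inhibitor of mTOR (10.91 and 4.52 FPKM), and Socs6, a suppressor of cytokine signalling (11.35 and 4.98 FPKM). Ptp4a2, a phosphatase of the PRL family, had 37.04 and 20.68 FPKM. Rassf5, a Ras effector, had 16.59 and 9.26 FPKM. The cAMP phosphodiesterase gene Pde7a had 14.6 and 8.52 FPKM, and Akap2, an anchor of protein kinase A, had 9.67 and 5.61 FPKM. Rcan3, a calcineurin regulator, had 19.52 and 11.75 FPKM. The growth hormone receptor gene Ghr had 6.9 and 4.11 FPKM. Sh3bp5l had 12.56 and 6.89 FPKM, and Cdkn2d, an INK4 inhibitor of CDK4 and CDK6, lay at the threshold with 6.66 and 4.09 FPKM.

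Mitochondrial and metabolic members mostly differed by less than 2-fold, as did 71 of all 103 members. Among 6 genes of mitochondrial proteins (median -0.62) only Slc25a44, the carrier of branched-chain amino acids, was past 2-fold, with 9.94 and 3.99 FPKM. Pars2, the mitochondrial prolyl-tRNA synthetase, had 4.3 and 1.85 FPKM. Atp5mpl, a small protein of ATP synthase, had 33.33 and 21.42 FPKM, and Ndufc1, of complex I, had 8.45 and 5.22 FPKM. The assembly factors Fmc1 and Sdhaf4 had 5.08 and 2.92 FPKM, and 3.77 and 2.13 FPKM. In the 8 genes of metabolic enzymes and glycan transfer (median -0.7), Acat3, an acetyl-CoA acetyltransferase, had 4.89 and 1.57 FPKM and Abhd14b, a hydrolase, 13.35 and 5.99 FPKM. Tymp, thymidine phosphorylase, had 7.93 and 4.72 FPKM. Ggact (23.42 and 14.56 FPKM), Pomgnt2 (12.43 and 6.99 FPKM), Pigo (5.08 and 2.93 FPKM) and Dpy19l4 (4.92 and 2.78 FPKM) had smaller differences than Acat3 and Abhd14b.

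The other 14 members, which no group above holds, had a median of -0.82, with 5 at least 2-fold lower. Serf1 had 8.04 and 3.1 FPKM and Tmem184b 50.15 and 27 FPKM. Cybc1, a chaperone of the phagocyte NADPH oxidase, had 10.95 and 5.98 FPKM. Polm, a DNA polymerase of end joining, had 13.74 and 8.41 FPKM. Bri3 (64.7 and 42.58 FPKM), Prrg2 (14.96 and 9.16 FPKM), Ankrd49 (9.48 and 5.85 FPKM), Fam172a (6.36 and 3.52 FPKM) and the rhomboid-like Rhbdd1 (6.12 and 3.61 FPKM) lay between 1.5-fold and 2-fold.

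Predicted genes, a pseudogene and a retrogene made up the last 12 members, with a median of -0.79 and 3 at least 2-fold lower. Their levels were low, with medians of 2.8 and 1.06 FPKM. Gm49322 had 5.95 and 1.27 FPKM. 1110065P20Rik had 13.98 and 7.21 FPKM, 1110008L16Rik 9.73 and 5.99 FPKM, and the retrogene Rps27rt 17.33 and 10.78 FPKM. Gm10800, Gm49369, B430218F22Rik, Gm10269, 3110009E18Rik and 9230102O04Rik had PBS levels between 1.6 and 2.75 FPKM and oxalate levels between 0.46 and 1.25 FPKM. Gm10269 was the 1 member that is not a protein-coding gene.

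Several members belong to known complexes or close families, and most other genes of those complexes had similar levels in both libraries, with Mlst8 past 1.5-fold in the higher direction. The 12 lists were chosen after the values were seen, because each holds a member. The SAGA deubiquitinase partners of Atxn7l3 had 32.24 and 34.14 FPKM (Usp22), 18.63 and 17.6 FPKM (Eny2) and 5.51 and 5.66 FPKM (Atxn7), so that their log2 fold changes ran from -0.08 to 0.08 against -1.87 for Atxn7l3. The 6 other genes of the m6A complex ran from -0.11 to 0.36 against -1.41 for Cbll1. The 3 other COMPASS core genes ran from -0.03 to 0.1 against -0.83 for Dpy30, which has 70.69 and 39.23 FPKM. In the NuA4 acetyltransferase, Morf4l2 (-0.96) and Mbtd1 (-0.73) were lower, and the other 14 genes ran from -0.18 to 0.38. Morf4l1, the relative of Morf4l2, had 128.05 and 120.63 FPKM.

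Arf2 to Arf6 ran from -0.09 to 0.05 against -0.73 for Arf1, and Rab11a had 58.69 and 57.21 FPKM where Rab11b had 33.58 and 15.41 FPKM. The 9 other COP9 signalosome genes ran from -0.14 to 0.04 against -0.71 for Cops9. The 5 other CORVET genes ran from 0.05 to 0.17 against -1.06 for Tgfbrap1. The tubulin cofactors beside Tbca ran from -0.32 to 0.16, and Rara, Rxra and Rxrb beside Rarg from -0.02 to 0.04, with Rarb listed at 0 in both libraries. Adat2, the partner of Adat3, had 3.3 and 4.45 FPKM (0.34). In the mTOR list, Mlst8 was past 1.5-fold in the higher direction, with 5.72 and 11.17 FPKM (0.86), while Deptor stood at -1.11 and the other 6 genes ran from -0.08 to 0.28. Mlst8 was the 1 gene in the 12 lists that was past 1.5-fold in the higher direction. In the lower direction the rule fixes the outcome, because an expressed gene past that fold is itself a member unless left out by name.

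**Figure D3:**
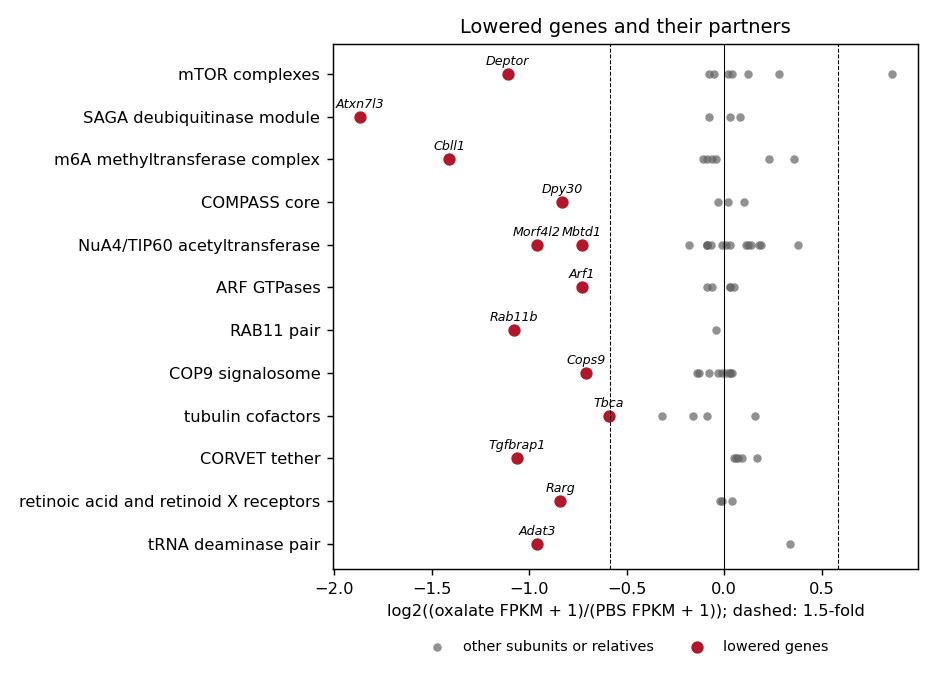
Difference on the log2(FPKM + 1) scale, oxalate against PBS, for 12 lists of complexes and families; red points are the lowered genes, grey points the other genes of each list with a mean of at least 1 FPKM, and dashed lines mark 1.5-fold. Only red points lie past the left dashed line, by construction. Of the grey points Mlst8 of the mTOR list (0.86) lies past the right one.

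In broader gene lists, drawn up with earlier results known, few genes were lower. Beside the background of 1.05% of genes lower past 1.5-fold, 1 of 35 expressed junction genes was lower (Tjap1), 1 of 47 actin genes (Lima1), 2 of 42 RAB genes (Rab11b and Rab12), and 2 of 39 SR and hnRNP genes (Hnrnpa3 and Hnrnpd). Their list medians were 0.065, -0.003, -0.019 and -0.06. Of 74 nuclear genes of oxidative phosphorylation 2 were lower (Atp5mpl and Ndufc1), with a median of -0.055. The lower genes left out by name, Gpx1 and Gstp2 among them, are not counted as lower in these lists. With those names aside, no gene was lower past 1.5-fold among 70 vesicle genes (median 0.02), 37 antioxidant genes of the NRF2 type (-0.003), 47 MAPK kinases (0.004), 45 proliferation genes (0.014), 48 DNA repair genes (-0.001), 18 interferon-stimulated genes (-0.016) and 33 autophagy genes (0.025). The same held for 80 cytosolic ribosomal proteins (-0.087), 77 mitochondrial ribosomal proteins (-0.058), 36 proteasome subunits (-0.015) and 41 ubiquitin-specific proteases (0.044). In the higher direction the lists of this paragraph held 1 vesicle gene, 1 cytosolic ribosomal gene and 1 ubiquitin-specific protease.

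Lists were also formed by name alone, again counting genes past 1.5-fold. Of 256 expressed zinc finger Zfp genes 7 were lower and 6 higher past that fold (median -0.016), of 140 Tmem genes 4 were lower and 1 higher (-0.007), of 59 Rnf genes 2 and 2 (0.006) and of 150 solute carriers 2 and 1 (0.034). Predicted Gm and Rik genes gave 11 lower and 5 higher of 274, with a median of -0.05. That is 4.01% of the predicted genes against 1.05% of all genes.

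Few members had a single annotated coding transcript, a property the rule did not use. In GENCODE M21, 10 of the 103 members (9.71%, exact 95% binomial interval 4.75 to 17.1%) had 1 coding transcript, against 2613 of the 10267 genes (25.5%) and 5 of the 96 genes raised at least 1.5-fold (5.21%). Members with 4 or more coding transcripts numbered 50 (48.5%), against 33.4% of all genes and 50% of the raised genes. Read the other way, 0.383% of genes with 1 coding transcript were members, 0.898% of those with 2, 1.15% of those with 3 and 1.46% of those with 4 or more. At a mean of at least 5 FPKM the shares were 0.148%, 0.778%, 0.917% and 1.45%. The raised genes showed 0.191%, 0.735%, 1.43% and 1.4% at a mean of at least 1 FPKM. The intervals cover the sampling of genes by number only, and genes are not replicates of a condition.

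**Figure D4:**
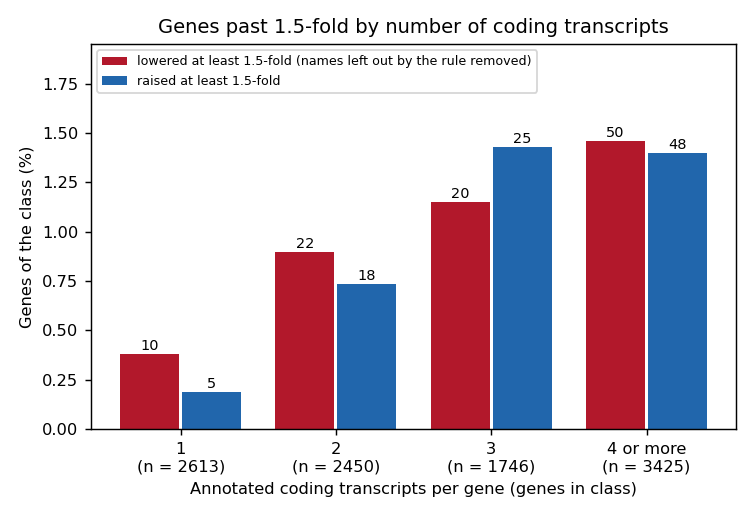
Share of genes (vertical axis, percent) past 1.5-fold in each direction, by number of annotated coding transcripts; red bars are the lowered genes, blue bars the raised genes, and the number over each bar counts the genes. The red bars run from 0.383% for 1 coding transcript to 1.46% for 4 or more, and the blue bars from 0.191% to 1.4%.

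The 10 members with 1 coding transcript were Gm20431, Gm44973, Gm49322, Gm10800, B430218F22Rik, 9230102O04Rik, Tymp, Rps27rt, Fmc1 and Sdhaf4. All but Gm20431, Tymp and Rps27rt had a mean below 5 FPKM, and 5 of the 10 shared gene bodies with another listed gene on the same strand. At the other end, Morf4l2 had 14 coding transcripts, Tjap1 had 11, and Abhd14b and March8 had 10 each. Members resembled other genes in size and base composition. Their longest coding transcript had a median of 3050 bases against 3130 for all genes, and its GC content a median of 50.5% against 50.2%. Among the 92 members with several coding transcripts the longest was 4 times the shortest at the median, against 3.81 times over 7621 genes. Coding transcripts within 1.2 times of each other in length were found in 20 of those 92 members (21.7%), against 12.8% of all such genes and 24.2% of the raised ones.

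Overlap with another listed gene, which the rule did not use either, is given as shares without a test. A gene body on the same strand overlapped in 12 members (11.7%), against 4.32% of all genes and 7.29% of the raised genes, and exons overlapped in 10 (9.71%) against 3.52% and 7.29%. At a mean of at least 5 FPKM the share of members with a same-strand overlap of gene bodies was 6.85%, that is 5 genes. The shares of all genes and raised genes were not formed at that level, so this value has no background. On the opposite strand gene bodies overlapped in 24 members (23.3%) against 22% and 27.1%, and exons in 22 (21.4%) against 18.8% and 24%. The library kit is not stated to mark strand, so reads of overlapping genes on either strand may not be separable.

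The levels of the overlapping genes differed from those of the members. Gm20431 shares exons with Ube2v1, a ubiquitin-conjugating enzyme variant, which had 42.12 and 93.84 FPKM (1.14), and with Tmem189, which had 19.36 and 22.45 FPKM. Gm49322 and Adat3 share exons with each other and with Scamp4, a secretory carrier membrane protein that had 59.31 and 116.28 FPKM (0.96). In these 3 members the oxalate value was below the PBS value while Ube2v1 and Scamp4 were past 1.5-fold in the higher direction. Zc3h11a shares exons with Gm38394 (8.85 and 12.59 FPKM) and Zbed6 (10.14 and 10.39 FPKM). Gm44973 shares them with Zfp524 (5.52 and 8.5 FPKM) and Zfp865 (15.58 and 16.84 FPKM). Prn shares them with Prnd (57.88 and 42.22 FPKM) and Prnp (25.59 and 26.91 FPKM), Gm49369 with Ctsd (83.7 and 94.79 FPKM), Tymp with Sco2 (16.51 and 23 FPKM) and 9230102O04Rik with Gata3 (47.75 and 46.36 FPKM). Akap2 shares exons with Pakap, listed at 0 in both libraries. In Csrnp1 and Fam172a only gene bodies overlapped, with Cx3cr1 and Pou5f2, both near 0.

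Counted over pairs that share exons on the same strand, 15 of 17 had an overlapping gene with a mean of at least 1 FPKM, and its median difference was 0.18. In 3 of the 15 pairs that gene was past 1.5-fold in the higher direction, in 2 (Gm49322 and Adat3, each for the other) in the lower, and in 10 it was within 1.5-fold. For exons on opposite strands 19 pairs had such a gene, and in all 19 it was within 1.5-fold, with a median of 0.03. The overlapping gene with the largest difference of its own there was Bad, beside Gpr137, which had 17.12 and 25.58 FPKM (0.55). The part that assignment of reads between overlapping genes has in these values was not tested.

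**Figure D5:**
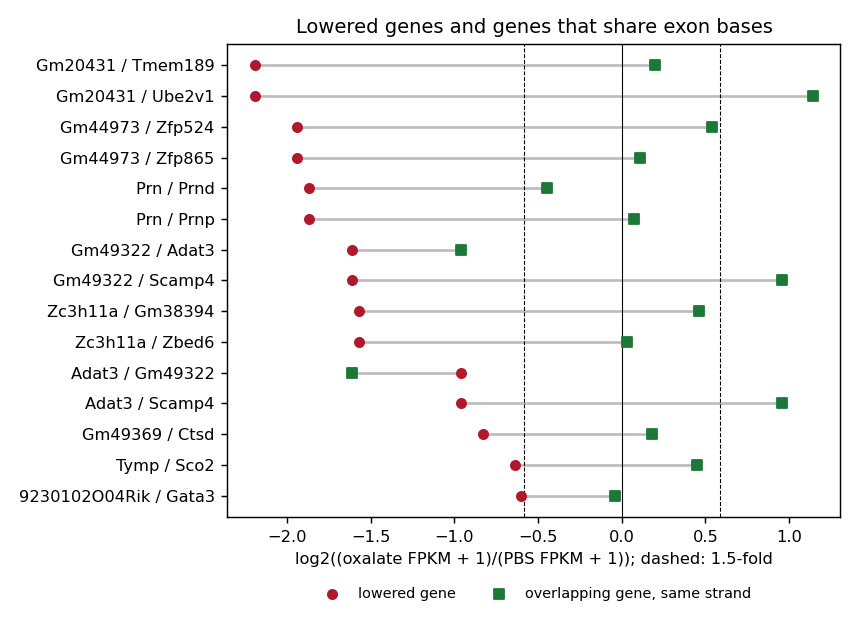
Difference on the log2(FPKM + 1) scale, oxalate against PBS, for 15 pairs of a lowered gene (red circle) and a gene that shares exon bases with it on the same strand (green square); dashed lines mark 1.5-fold. Ube2v1 (1.14) and Scamp4 (0.96) lie past the right dashed line, and Adat3 and Gm49322 appear in both roles.

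Some members share near-identical stretches with other listed genes, for which the assignment of reads is uncertain. A stretch of at least 200 bases with at least 95% identity to another listed gene was found in 24 members, and in 6 of them the other gene did not overlap it. The search was made for the members only, so these counts have no background and say nothing particular of the members. Where the other gene overlapped, the shared stretch could be most of the member. Zc3h11a shared 4237 of 4396 bases with Gm38394, Prn 3128 of 3370 with Prnd, and Gm49369 671 of 833 with Ctsd. Of the 6 whose match did not overlap them, Acat3 matched Acat2, which had 39.07 and 38.33 FPKM, over 1477 bases. Rps27rt matched Rps27 (136.75 and 105.85 FPKM) and Gm10269 matched Rpl35 (595.26 and 511.42 FPKM). Hnrnpa3 matched Gm6793 (19.62 and 17.93 FPKM) and Gm9242 (45.6 and 39.85 FPKM). Zfp965 lies in a cluster of zinc finger genes with many such matches, of which Zfp973 had 2.88 and 1.73 FPKM and Zfp969 had 2.06 and 3.44 FPKM. Zfp984 matched Gm13212 (0.34 and 0.42 FPKM) and Zfp985 (0.32 and 0.04 FPKM). Whether reads were divided between these members and their copies was not tested.

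By position, members lay on 20 chromosomes. Chromosome 11 held 11 members (10.7%, against 8.48% of all genes) and chromosome 4 held 10 (9.71% against 6.21%). Chromosome 15 held 8 (7.77% against 3.95%). The X chromosome held 5 (4.85% against 2.87%), Zfx, Zfp275, Morf4l2 and Rbmx among them. The shares went the other way on chromosome 7 with 5 members (4.85% against 7.5%), chromosome 8 with 3 (2.91% against 5.54%), chromosome 10 with 2 (1.94% against 4.76%) and chromosome 16 with 1 (0.971% against 3.17%).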

How the data were processed

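The authors enriched polyadenylated RNA of 4T1 cells with oligo(dT), copied it with random primers and sequenced it on an Illumina HiSeq2500, 1 library per condition. The deposited table holds FPKM values with 2 decimals for 21911 genes in both libraries. The submitters' processing notes name Bowtie2 2.2.8 and TopHat2 2.1.1; the FPKM tool, genome build and annotation release are not given in the sources used here. No deposited column was left unused.

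Identifiers were matched to GENCODE M21 (GRCm38), which need not be the authors' annotation: 21848 were found and 63 were not. FPKM are not counts, so no count test was run, and 1 library per condition allows no test of the conditions. Fold changes are on the log2(FPKM + 1) scale, which understates changes of low genes, over genes with a mean of at least 1 FPKM. Depth came from the steps of FPKM times transcript length: among short genes with several transcripts, values within 0.2 of a whole read made up 97.6% of 42 with PBS and 94.3% of 35 with oxalate. The reads of a gene were taken from its FPKM and the mean length of its coding transcripts. Those of longer genes, or above 10 reads, were not checked this way. Reads are therefore estimates, and the ratio's exact (Clopper-Pearson) interval covers counting error only. Copies were sought with blastn 2.17.0. Promoter windows came from RefSeq (GRCm38.p6), with 77 members matched.

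The members and lists were chosen with earlier results of these data known. Named genes were the 20 largest differences at a mean of at least 5 FPKM, the 10 highest PBS levels, members at 0 with oxalate, members that overlap a gene on the same strand, members in a gene list, the 3 genes on each side of the threshold and members with 1 coding transcript. Other members were named by function after their values were seen, and a few genes and 1 list are not reported here. Alternatives were other pseudocounts, filters, scalings, thresholds and overlap definitions. The scripts were tested on simulated data. Computations used pandas 2.3.3 and numpy 2.4.6, with scipy 1.17.1 for intervals and matplotlib 3.10.9 for figures, under Python 3.11.15.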

Additional observations from a re-analysis of the deposited data

How the results depend on the processing

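The number of lowered genes was 136 with a pseudocount of 0.1 and 143 with 0.001. It was 116 without a filter on the mean, 116 with upper-quartile scaling and 104 after centring on the median. All 103 members were among them in each case. That was fixed in advance, because these settings loosen the rule or move the differences downward, so it is no check of the list. The number was 73 at a mean of at least 5 FPKM and 92 without predicted genes. Without genes that overlap on the same strand it was 91, and at a threshold of 2-fold it was 32. Upper-quartile scaling moved the median of all genes to -0.0473 and the lower share of genes past 1.5-fold from 52.9% to 59.9%. The share of members with 1 coding transcript was 4.11% at a mean of at least 5 FPKM, against 9.71%, and between 6.8% and 14% under the other alternatives. The share overlapping a gene on the same strand ranged from 6.85% to 15.6%. The lower end is at a mean of at least 5 FPKM, where no share of all genes was formed. Over 68 named genes and 3 alternatives, 38 of 204 values shifted by more than the half-width of the counting interval; the direction could not change under these alternatives. No paired analysis was possible because only 1 library stands for either condition, nor could a replicate be left out, so the spread between cultures is unknown.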
